A study of Mus musculus with 10 samples.

Results

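Antibody chain and B cell genes were read on Affymetrix mouse arrays from the renal cortex of 10 mice with reduced kidney mass. The genes were Ighm, Jchain, Igkc, Cd79a, Cd79b, Ms4a1 and Cd22, and every probe set annotated to one of these 7 symbols was taken, with no filter on level. This gave 25 of 45037 non-control probe sets, 18 with 1 gene symbol and 7 with several. The genes were chosen by the measured spread of Ighm between mice in these data, so the spread of Ighm and of the genes beside it is given as a description without a test.

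All mice were FVB/N, 20 weeks old, with 2/3 kidney ablation and a later uninephrectomy. Losartan (500 mg/l), a blocker of the type 1 angiotensin II receptor, was given to 5 mice, and aliskiren (50 mg/kg per day), an inhibitor of renin, to the other 5. Dosing ran for 6 weeks, starting 6 weeks past the ablation, which was 4 weeks past the uninephrectomy. Each array stood for a different mouse, numbered 1 to 5 within a drug, and untreated or unoperated mice were not analysed here. Values are log2 expression values made with RMA, which subtracts background, equalises arrays and summarises each probe set in 1 value, and a difference of 1 is a 2-fold change.

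An antibody is built from heavy chains, which fix its class (Ighm for IgM, Igha for IgA, Ighg3 for a subclass of IgG), and light chains, mostly kappa in the mouse. Resting B cells carry IgM in the membrane together with the signalling pair CD79A and CD79B, and with the surface proteins CD20 (Ms4a1) and CD22. Plasma cells, the secreting descendants of B cells, make large amounts of heavy and light chain RNA and of Jchain, whose product links IgA and IgM into polymers, while much of the B cell surface programme is turned down. In the kidney, such polymers can be carried across tubular epithelium by the polymeric immunoglobulin receptor, encoded by Pigr.

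The arrays carried a renal cortex signal throughout, and 5 of the 6 probe sets of B cell surface genes lay below the median level. The mean of 8 renal cortex genes, among them Slc34a1, Lrp2 and Umod, was between 12.39 and 12.95 in every mouse. Of the 25 member probe sets 16, or 64%, had a mean over the 10 mice below 5.53, the median of all probe-set means, where 50% of all probe sets lie by construction. The 9 above it were 4 of the 15 Ighm probe sets (1427351_s_at, 1427870_x_at, 1427329_a_at and 1425247_a_at), the Jchain probe set, the 3 kappa probe sets and 1 of the 2 Cd22 probe sets. Both Ms4a1 probe sets, the Cd79a and Cd79b probe sets and the other Cd22 probe set lay below. The level of a probe set also depends on its probes, so levels of different genes are not ranked here. Precision is limited by the 5 arrays a drug.

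Jchain, kappa, Igha and some of the Ighm probe sets spread widely between mice, and the mice of highest value differed between the heavy chain probe sets. Kappa, Jchain and the IgA heavy chain gene Igha were highest in losartan mouse 1 and aliskiren mouse 1. The Ighm probe set of highest mean and an Ighg3 probe set were highest in losartan mouse 2. Aliskiren mouse 1 had high values of both Igha and Ighm. In these cortex samples, more cells of a type and more RNA per cell cannot be told apart.

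For Ighm, the heavy chain of IgM, the reference probe set was the one with the highest mean, 1427351_s_at. Its values were 7.30, 9.75, 7.45, 7.42 and 7.34 in losartan mice 1 to 5, and 8.80, 7.43, 7.63, 7.27 and 7.15 in aliskiren mice 1 to 5. Losartan mouse 2 and aliskiren mouse 1 stood above the other 8 mice, which lay between 7.15 and 7.63, and the drug groups overlapped. The distance from lowest to highest mouse was 6.05-fold, and the SD over 10 mice, 0.84, ranked at the 99.3rd percentile of all probe sets.

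The 11 Ighm probe sets with 1 symbol did not share a single pattern. A range of more than 1 log2 unit between mice was found for 6 of them, and for 11 of all 25 member probe sets, where 10.3% of all probe sets had such a range. Of these 6, the probe sets 1427351_s_at and 1427329_a_at were highest in losartan mouse 2, with aliskiren mouse 1 next. For 1427329_a_at the values were 8.11 in losartan mouse 2 and 7.46 in aliskiren mouse 1, against 5.45 to 6.74 elsewhere. The other 4 were highest in aliskiren mouse 1 and little raised in losartan mouse 2. On 1425247_a_at aliskiren mouse 1 reached 8.36, losartan mouse 2 had 6.23, and the other mice lay between 5.11 and 5.69. On 1425324_x_at the value was 7.50 in aliskiren mouse 1 and 5.36 in losartan mouse 2, on 1427756_x_at it was 6.59 and 5.03, and on 1427870_x_at it was 8.43 and 7.05. In Affymetrix naming, an x marks probes that can also bind other sequences and an s marks probes shared by several transcripts, so a set of either kind can report on more than the gene it is annotated to. The remaining 5 Ighm probe sets with 1 symbol, and the 4 annotated to Ighm together with variable or Ighg3 segments, all had means below the median of all probe sets and ranges of at most 0.98.

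**Figure D1:**
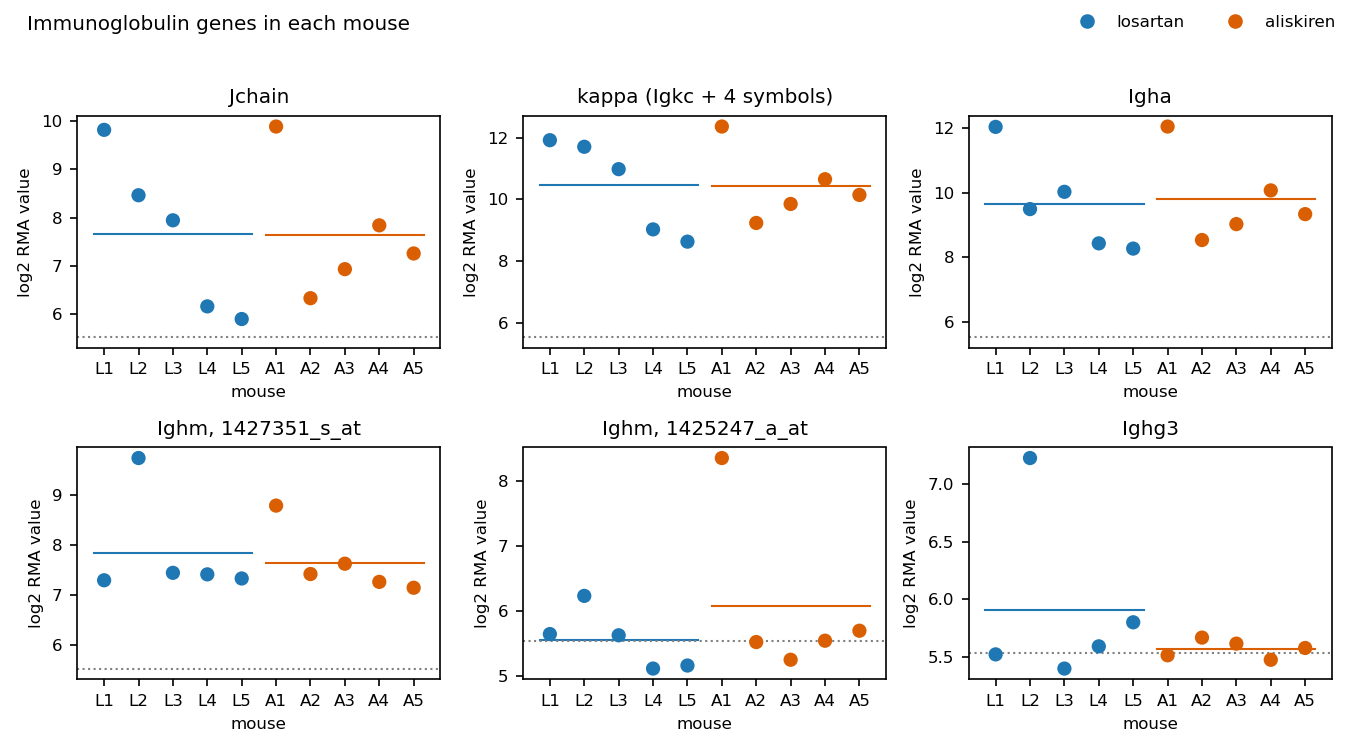
Log2 RMA values (vertical axes, scales differ) of 6 immunoglobulin probe sets in losartan mice (L1 to L5, blue) and aliskiren mice (A1 to A5, orange), with group means as lines and the median of all probe-set means, 5.53, dotted. L1 and A1 are highest for Jchain and Igha, L2 for Ighm 1427351_s_at and Ighg3, and A1 for Ighm 1425247_a_at.

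The kappa light chain was measured by 3 probe sets, each annotated to Igkc together with 4 kappa variable or joining segments, Igkv8-30 among them. None therefore reads Igkc alone. On 1427660_x_at the values were 11.92, 11.71, 10.98, 9.03 and 8.63 in losartan mice 1 to 5, and 12.37, 9.24, 9.85, 10.66 and 10.15 in aliskiren mice 1 to 5. Aliskiren mouse 1 was highest, losartan mice 4 and 5 and aliskiren mouse 2 were lowest, and the drug groups overlapped over nearly their whole range. From lowest to highest mouse this was 13.3-fold, and the other 2 kappa probe sets spanned 12.8-fold and 13.8-fold.

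Jchain, which links antibody units into polymers, had values of 9.81, 8.46, 7.94, 6.17 and 5.91 in losartan mice 1 to 5. In aliskiren mice 1 to 5 they were 9.88, 6.34, 6.94, 7.84 and 7.26. The extremes of the losartan group enclosed all aliskiren mice but mouse 1, and the span was 15.7-fold. The SD over the 10 mice was 1.42, at the 99.9th percentile of all probe sets.

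Igha, not among the 7 genes, has to be set beside them, since IgA and IgM are the classes that take up the J chain. On its probe set of highest mean, 1421653_a_at, the values were 12.04, 9.50, 10.03, 8.44 and 8.27 in losartan mice 1 to 5, and 12.05, 8.54, 9.03, 10.07 and 9.34 in aliskiren mice 1 to 5. Losartan mouse 1 and aliskiren mouse 1 stood 2.62 and 2.63 above the median of the 10 mice, and losartan mouse 2 stood 0.08 above it. The same 3 mice stood -0.12, 1.37 and 2.33 from the median for Ighm on 1427351_s_at, in the order losartan mouse 1, aliskiren mouse 1 and losartan mouse 2. The other 2 Igha probe sets gave the same 2 mice as highest, at 11.65 and 11.72 on 1425763_x_at and at 10.90 and 10.71 on 1429381_x_at.

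In losartan mouse 2 the Ighg3 probe set 1427503_at was high as well, at 7.22, against 5.40 to 5.80 in the other 9 mice. The other 3 Ighg3 probe sets did not show this, with losartan mouse 2 at -0.02, -0.23 and 0.04 from the median of the 10 mice, all at low levels. Kappa there was 1.31 and Jchain 0.91 above the median of the 10 mice. Of the 28 probe sets with 1 symbol of other heavy and light chain genes, 23 lay below the median of all probe sets and 9 had a range above 1 log2 unit. The 5 of highest mean were the 3 Igha probe sets, Igkv8-30 and 1427503_at. Igkv8-30, a kappa variable segment, ran from 6.02 in losartan mouse 5 to 9.44 in aliskiren mouse 1.

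**Figure D2:**
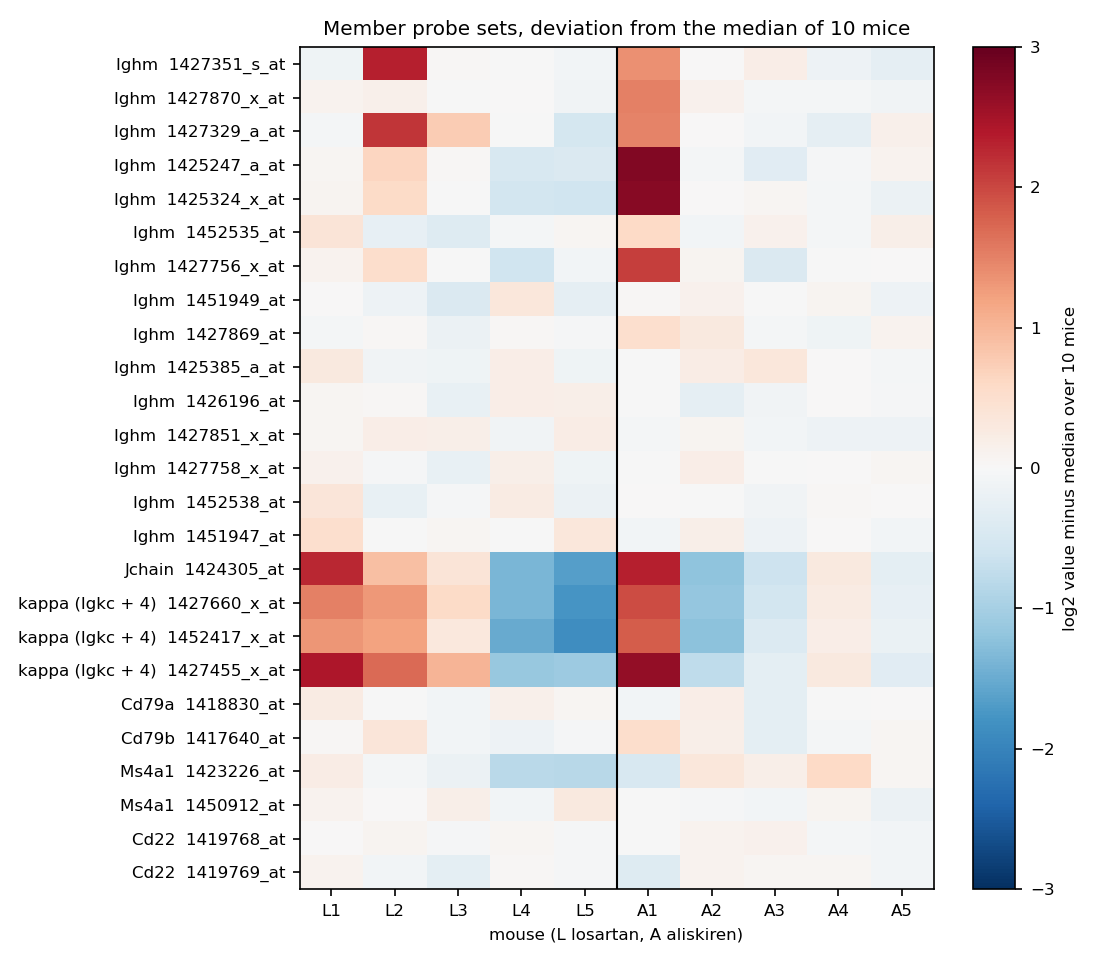
Log2 value minus the median over the 10 mice (colour) for the 25 member probe sets (rows) in each mouse (columns, L losartan, A aliskiren). Jchain and the kappa probe sets share 1 pattern, with L1 and A1 high and L4, L5 and A2 low. The Ighm probe sets with a range of more than 1 log2 unit are high in A1, and 1427351_s_at and 1427329_a_at are higher still in L2. The other Ighm probe sets show less colour. Among the B cell surface genes Ms4a1 1423226_at shows the most colour, low in L4 and L5.

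Jchain followed kappa and Igha from mouse to mouse. The 10 mice came in the same order for Jchain and for kappa on 1427660_x_at (Spearman's rho = 1, permutation p = 1e-05, the smallest that the 100000 permutations can give). Pearson's r was 0.978 (permutation p = 1e-05, adjusted p = 6e-05 over the 12 relations of Jchain computed). For Igha r was 0.964 (permutation p = 6e-05, adjusted p = 0.00024) and rho was 0.952 (permutation p = 9e-05). For Igkv8-30 r was 0.973 (permutation p = 1e-05, adjusted p = 6e-05) and rho was 0.988 (permutation p = 3e-05). The kappa probe set is also annotated to Igkv8-30, so the kappa and Igkv8-30 relations are not separate findings. Losartan mouse 1 and aliskiren mouse 1 lay farthest from the Jchain median. Without them r over the 8 other mice was 0.995 for kappa, 0.904 for Igha and 0.929 for Igkv8-30 (exact permutation, adjusted p = 0.000298, 0.0185 and 0.00357). These relations were computed after the values had been seen. With 5 mice a drug is too few for a value within it, and after subtraction of each drug's mean r was 0.978, 0.966 and 0.977.

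Among 11486 genes with a mean at or above the median of all probe sets, those with the highest r to Jchain over the 10 mice were Igkv8-30 and Igha. The next were Ccndbp1 at 0.929, Bysl at 0.924 and Sgms2 at 0.921, none of which is an antibody gene. This ranking is a description, and with 10 mice high values arise among so many genes.

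The relation of Ighm to the other members could be tested only in part. The 10 Ighm values fell into 8 mice close together and 2 high ones, so these 6 relations were computed over the 8 mice alone. The 8 mice lie between 7.15 and 7.63 for Ighm and leave out the pair that makes its spread, so these values say nothing about the mice of high Ighm. Over them, r between Ighm and Jchain was -0.256 (exact permutation p = 0.528, adjusted p = 0.74 over 6 relations) and rho was -0.19. For kappa r was -0.215 (exact permutation p = 0.617, adjusted p = 0.74). None of the 6 relations passed after adjustment. The nearest was Cd22 at r = 0.803 (exact permutation p = 0.012, adjusted p = 0.0722) and rho = 0.81. Cd22, on 1419768_at, lay between 5.56 and 5.77 over the 10 mice, with an SD at the 3.28th percentile of all probe sets. This value therefore relates small differences in both genes. Without losartan mouse 3 there was 1 relation that passed, and without aliskiren mouse 2 there were 2. The genes with the highest r to Ighm over all 10 mice, as a description that rests mainly on the 2 high mice, were Nek2 at 0.925, Gse1 at 0.916, Stat6 at 0.888, Smu1 at 0.876 and Papolg at 0.872. Over the 8 mice these were 0.761, 0.773, 0.587, 0.175 and 0.763. Kif22, Tfap4, Ppm1h, Spred2 and Rnf26 completed the 10.

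**Figure D3:**
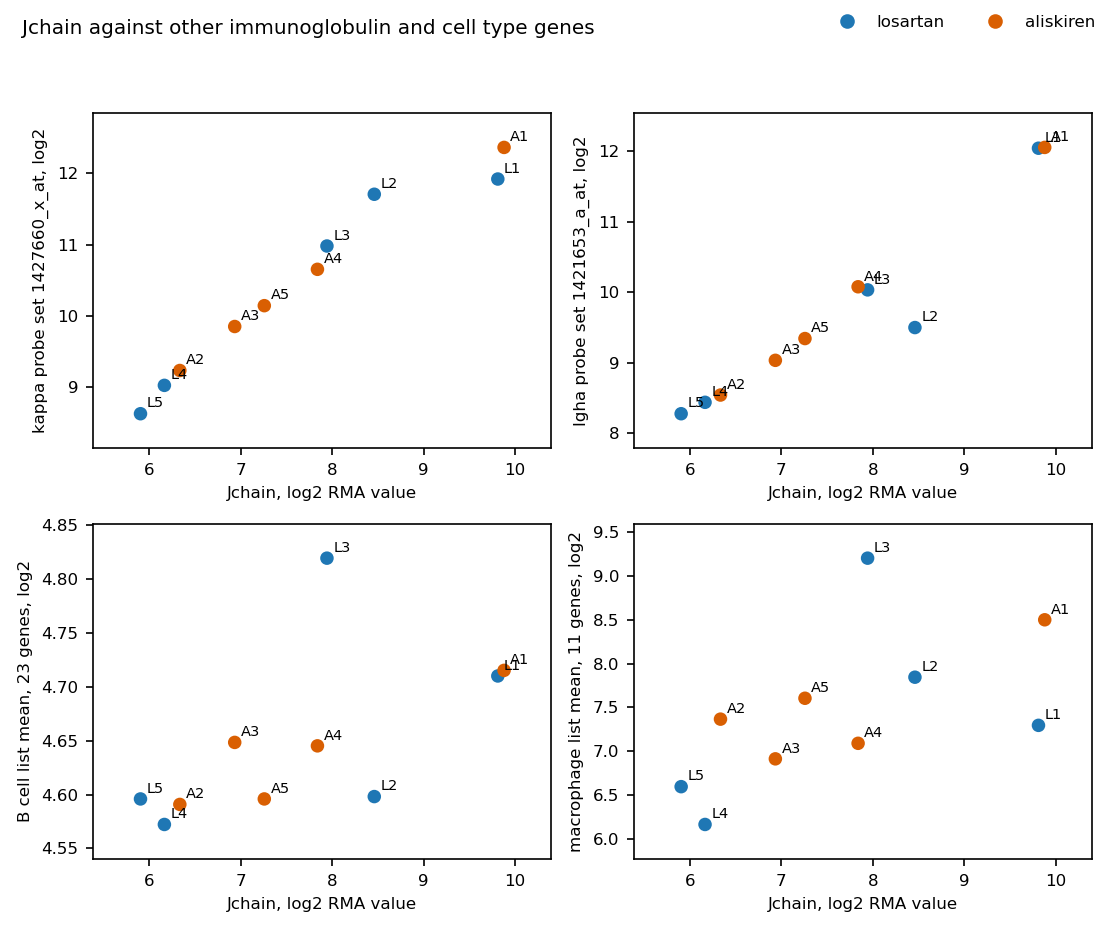
Jchain (horizontal axes, log2 RMA value) against a kappa probe set, an Igha probe set, the mean of 23 other B cell genes and the mean of 11 macrophage genes (vertical axes, log2) in losartan (blue) and aliskiren (orange) mice. Kappa and Igha rise with Jchain in both drug groups, at r = 0.978 and 0.964, while L3 stands apart for the B cell and macrophage means.

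Among the genes of the B cell membrane, Cd79a, Cd79b and Cd22 spanned less than 2-fold between mice, and Ms4a1 spanned 2.66-fold. Cd79a, the alpha chain that signals for the B cell receptor, had 4.61, 4.36, 4.27, 4.53 and 4.41 in losartan mice 1 to 5 and 4.29, 4.57, 4.08, 4.35 and 4.37 in aliskiren mice 1 to 5. Losartan mouse 1 was highest by a small margin, aliskiren mouse 3 was lowest, and the groups overlapped. The whole range was 1.45-fold.

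Its partner Cd79b had 4.72, 5.07, 4.62, 4.54 and 4.67 with losartan and 5.23, 4.88, 4.40, 4.63 and 4.75 with aliskiren. Aliskiren mouse 1 and losartan mouse 2, the mice with high Ighm, were highest here too, within a range of 1.77-fold. This match of the highest mice was not tested. Over the 8 other mice r between Ighm and Cd79b was negative, at -0.588 (exact permutation p = 0.116, adjusted p = 0.349). Over the 10 mice r with Jchain was 0.55 for Cd79b (permutation p = 0.0961, adjusted p = 0.186) and -0.0213 for Cd79a (permutation p = 0.952, adjusted p = 0.952).

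Ms4a1, encoding the B cell surface protein CD20, had on 1423226_at 4.41, 4.13, 4.02, 3.39 and 3.37 in losartan mice 1 to 5 and 3.71, 4.53, 4.36, 4.78 and 4.26 in aliskiren mice 1 to 5. Losartan mice 4 and 5, low for Jchain, were lowest, but aliskiren mouse 1, highest for Jchain, came next at 3.71, and the groups overlapped. Its SD over the 10 mice, 0.48, ranked at the 96.6th percentile of all probe sets, close to the 0.49 of the Ighm probe set 1427870_x_at. Its other probe set, 1450912_at, lay between 2.34 and 2.80. Cd22, an inhibitory co-receptor of the B cell receptor, lay between 5.56 and 5.77 on 1419768_at, with an SD at the 3.28th percentile of all probe sets. On 1419769_at it lay between 2.92 and 3.41. The relation with Jchain had r = 0.239 for Ms4a1 (permutation p = 0.505, adjusted p = 0.606) and -0.174 for Cd22 (permutation p = 0.622, adjusted p = 0.678).

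**Figure D4:**
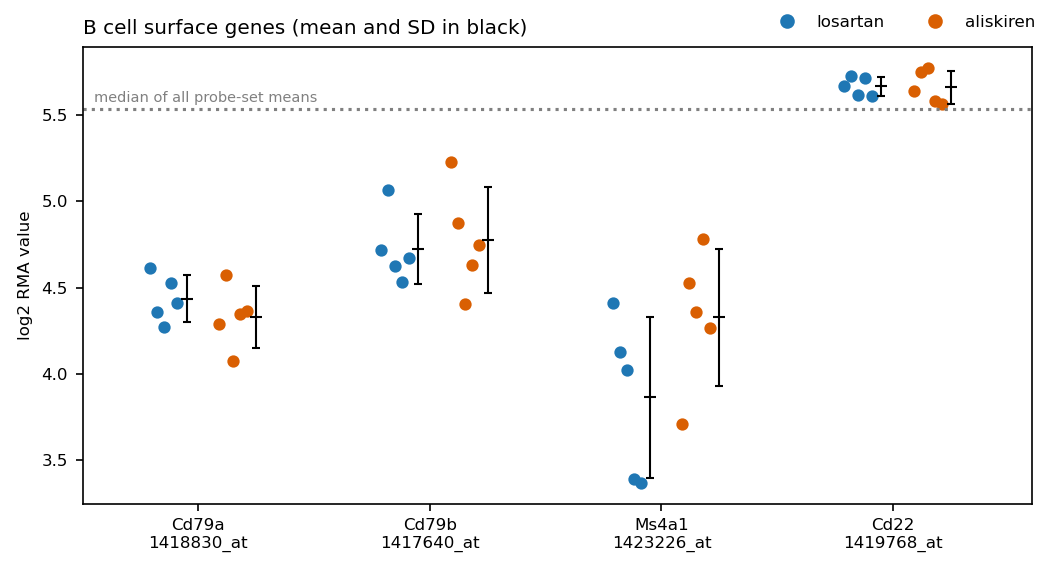
Log2 RMA values of Cd79a, Cd79b, Ms4a1 and Cd22 at the probe set of highest mean, in losartan (blue) and aliskiren (orange) mice, with the group mean and SD (n = 5) in black and the median of all probe-set means, 5.53, dotted. Only Cd22, between 5.56 and 5.77, lies above that median, and all drug groups overlap.

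The upstream sequences of Jchain, a gene of wide spread between mice, and of Cd79a and Cd22, genes of narrow spread, are shown because they set a plasma cell gene beside B cell genes. RefSeq sequences upstream of the start (GRCm38.p6) were at hand for these 3 of the 7 genes. Capitals mark matches on either strand to motifs bound by B lineage factors, namely the octamer ATGCAAAT of Oct factors, the PU.1 core GAGGAA, the E box CANNTG of E proteins and the EBF core CCCNNGGG. No matches overlapped. Each is the 250 bases before the start, written 5′ to 3′ on the gene's strand.
Jchain (chr5:88527898-88528147, minus strand): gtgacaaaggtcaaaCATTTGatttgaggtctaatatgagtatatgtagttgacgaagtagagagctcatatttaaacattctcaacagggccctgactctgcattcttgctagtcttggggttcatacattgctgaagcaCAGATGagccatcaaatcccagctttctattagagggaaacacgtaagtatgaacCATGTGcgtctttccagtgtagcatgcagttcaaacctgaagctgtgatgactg
Cd79a (chr7:24897247-24897496, plus strand): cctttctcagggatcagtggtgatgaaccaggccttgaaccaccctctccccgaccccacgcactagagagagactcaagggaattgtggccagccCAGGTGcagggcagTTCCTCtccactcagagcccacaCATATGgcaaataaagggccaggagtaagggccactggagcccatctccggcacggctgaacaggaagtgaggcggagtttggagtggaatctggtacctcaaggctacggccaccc
Cd22 (chr7:30879029-30879278, minus strand): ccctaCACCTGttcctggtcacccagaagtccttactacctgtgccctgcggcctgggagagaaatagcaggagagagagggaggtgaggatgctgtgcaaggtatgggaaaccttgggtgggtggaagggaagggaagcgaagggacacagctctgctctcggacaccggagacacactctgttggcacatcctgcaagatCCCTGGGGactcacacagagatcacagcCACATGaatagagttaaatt

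The Jchain sequence held 3 E boxes, the Cd79a sequence 2 E boxes and 1 PU.1 core, and the Cd22 sequence 2 E boxes and 1 EBF core. Of 32851 such sequences 66.2% hold an E box, 23.3% a PU.1 core, 11.8% an EBF core and 1.6% the octamer, so E boxes are common. The matches describe letters and not binding.

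Aliskiren and losartan were compared with limma (lmFit and eBayes, two-sided, Benjamini-Hochberg over all 45037 probe sets), which asks whether antibody and B cell genes differ by drug in the remaining kidney. None of the 25 member probe sets passed an adjusted p of 0.05, and 0% of all probe sets did. At an unadjusted p under 0.05 there was 1 of the 25, against 4.3% of all probe sets. It was 1427851_x_at, annotated to Ighv1-72 and Ighm, with a difference of -0.18 (SE 0.08, limma adjusted p = 0.991) at a mean level below the median. The groups did not overlap for 0 of the 25, against 0.702% of all. A lower value with aliskiren was found for 13 and a higher one for 12, with a median difference of 0.00, beside 52.7% lower and a median of -0.01 for all probe sets.

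**Figure D5:**
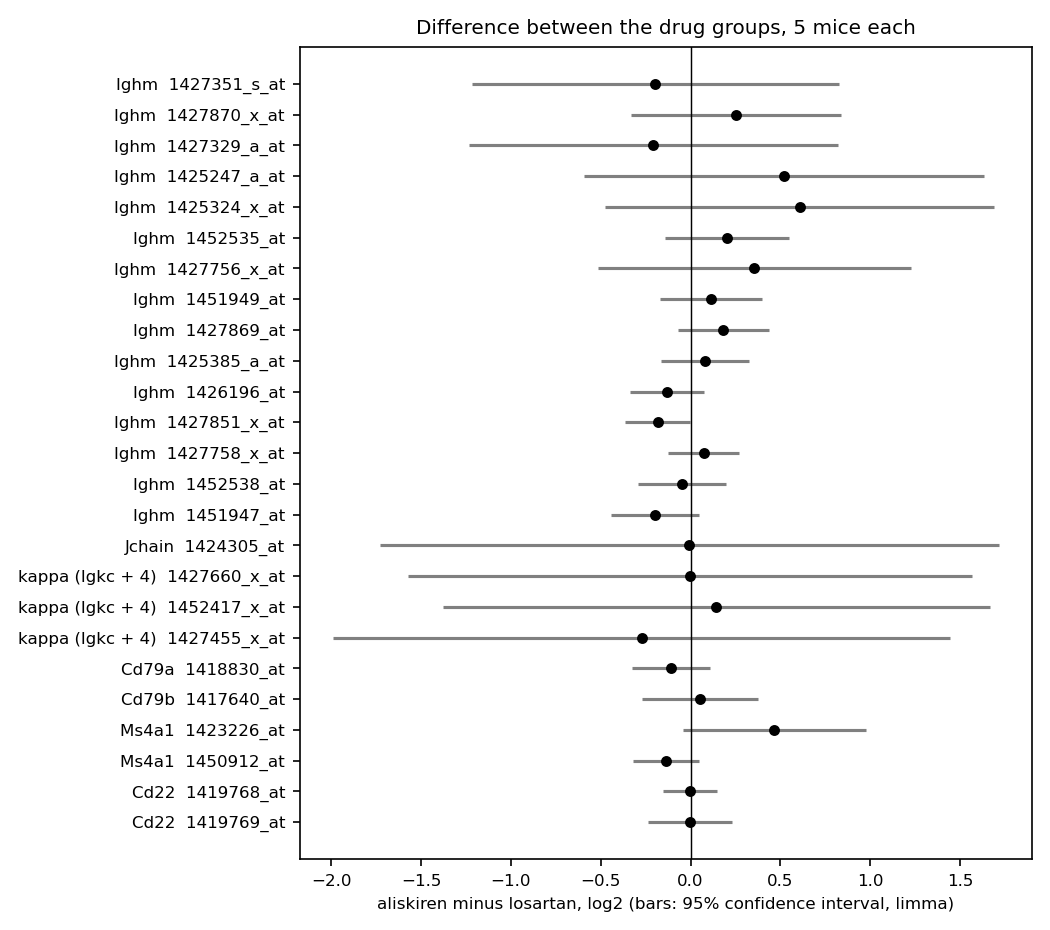
Aliskiren minus losartan on the log2 scale (points) with limma's 95% confidence interval (bars) for the 25 member probe sets, 5 mice a group. Every interval but that of 1427851_x_at includes 0, and those of Jchain, kappa and the varying Ighm probe sets are widest.

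The width of the intervals followed the spread between mice. Jchain averaged 7.66 ± 1.63 (SD, n = 5) under losartan and 7.65 ± 1.36 under aliskiren. The difference was -0.01, and its 95% interval ran from -1.73 to 1.72 (limma adjusted p = 1). A change of 3-fold in either direction therefore lies within it. For kappa on 1427660_x_at the means were 10.45 ± 1.53 and 10.45 ± 1.19, and the interval ran from -1.57 to 1.57. The drug accounted for 0.000835% of the variance of Jchain and 0.00014% of that of kappa, where the median over all probe sets was 5.9%.

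Ighm on 1427351_s_at was at 7.85 ± 1.06 (SD, n = 5) and 7.65 ± 0.66, a difference of -0.20 (SE 0.47, limma adjusted p = 0.996). It turned to 0.28 without losartan mouse 2 and was -0.48 without aliskiren mouse 1. The 4 probe sets highest in aliskiren mouse 1 had differences between 0.25 and 0.61 in the other direction. Igha differed by 0.15 (SE 0.76, adjusted p = 0.996) and by -0.41 without aliskiren mouse 1.

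The B cell surface genes had narrower intervals. Cd22 on 1419768_at differed by 0.00 (SE 0.07), with an interval from -0.15 to 0.15. Cd79a differed by -0.11 (SE 0.10), from -0.32 to 0.11, and Cd79b by 0.05 (SE 0.15), from -0.27 to 0.37. Ms4a1 on 1423226_at averaged 3.86 ± 0.46 (SD, n = 5) under losartan and 4.33 ± 0.40 under aliskiren. It differed by 0.47 (SE 0.23, limma adjusted p = 0.991) with an interval from -0.04 to 0.97, while 1450912_at had -0.14 (SE 0.08). Both Ms4a1 probe sets and those of Cd79a and Cd79b lay below the median of all probe sets. Whether the low level bears on the width of these intervals was not tested.

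The other genes of the lineage were taken from lists, 1 probe set a gene. Of 23 other B cell genes measured, 20 lay below the median level, where 36.9% of all 18193 genes did. For these 23, 9 had a higher and 14 a lower value with aliskiren, where 53% of all genes were lower. The median difference was 0.00 beside -0.01 for all genes, none passed limma's threshold, as 0% of all genes did, and 0 of the 23 had an unadjusted p under 0.05, where 3.92% of all genes did. The 3 above the median were Blnk, an adaptor of B cell receptor signalling, the transcription factor gene Ebf1 and Bach2. Blnk had 8.96 ± 0.35 (SD, n = 5) and 8.67 ± 0.18, a difference of -0.29 (SE 0.16, limma adjusted p = 0.991). The largest SD in the list was that of H2-Ob, an MHC class II chaperone subunit of B cells, which ran from 2.87 in losartan mouse 5 to 5.18 in aliskiren mouse 1, the mice lowest and highest for Jchain. Ebf1 and Tnfrsf13b, a receptor for B cell survival factors, were highest in losartan mouse 3, at 7.33 and 5.22. That mouse was also highest for the mean of fat genes (10.34) and of macrophage genes (9.20), and the part of other cell types in these values was not tested. The mean of the 23 genes ran from 4.57 to 4.82 with losartan and from 4.59 to 4.72 with aliskiren, and its r with Jchain was 0.596 (permutation p = 0.0658, adjusted p = 0.186) and 0.469 over the 8 mice without losartan mouse 1 and aliskiren mouse 1 (exact permutation p = 0.254). Spearman's rho was 0.76 for this mean (permutation p = 0.0143), 0.721 for the macrophage mean (permutation p = 0.0226) and 0.685 for the tubular injury mean (permutation p = 0.0336), none of them adjusted.

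The mean of 12 plasma cell genes ran from 7.03 to 7.21 over the mice. Of the 12, 5 had a higher and 7 a lower value with aliskiren, where 53% of all genes were lower. The median difference was -0.02 beside -0.01 for all genes, and none passed, as 0% of all genes did. The list holds genes that renal epithelium also expresses, such as Xbp1 and Sdc1. Prdm1, which drives plasma cell differentiation, lay between 3.92 and 4.94, and Irf4 between 3.85 and 5.62 with the highest value in losartan mouse 3. The r of the list mean with Jchain was 0.503 (permutation p = 0.142, adjusted p = 0.213) and 0.139 over the 8 mice (exact permutation p = 0.727).

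Among 8 genes of antibody transport and Fc receptors, 6 had a higher and 2 a lower value with aliskiren, where 53% of all genes were lower. The median difference was 0.04 beside -0.01 for all genes, and none passed, as 0% of all genes did. Pigr was abundant, at 12.33, 13.23, 11.33, 12.80 and 11.91 in losartan mice 1 to 5 and 13.12, 12.36, 12.58, 12.72 and 12.54 in aliskiren mice 1 to 5. Losartan mouse 2 and aliskiren mouse 1 were the highest for Pigr, and losartan mouse 3 was the lowest. The 2 highest are also the mice with high Ighm, but a relation of Pigr to Ighm was not tested. How many of all probe sets were highest in these 2 mice was not counted. Pigr differed by 0.34 between drugs (SE 0.30, limma adjusted p = 0.991). Fcgr2b, the inhibitory Fc receptor, stayed between 9.59 and 10.03, and Fcgr3, an activating one, ran from 5.20 in losartan mouse 4 to 8.76 in losartan mouse 3.

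Of 7 measured genes that attract or sustain lymphocytes, 3 had a higher and 4 a lower value with aliskiren, where 53% of all genes were lower. The median difference was -0.02 beside -0.01 for all genes, and none passed, as 0% of all genes did. Tnfsf13b, encoding the B cell survival factor BAFF, was highest in aliskiren mouse 1 at 6.27 and losartan mouse 3 at 6.03, and ran from 4.44 to 5.38 in the other mice. Cxcl13, which attracts B cells to follicles, was highest in losartan mouse 3 at 8.27 and lay between 4.72 and 6.09 in the others. Losartan mouse 1, with Igha at 12.04, had Cxcl13 at 5.80 and Tnfsf13b at 5.18. In the plasma cell, transport and lymphocyte lists 0 genes had an unadjusted limma p under 0.05, where 3.92% of all genes did.

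Markers of other cell types were set beside the antibody genes. Between drugs 0 of these genes passed limma's adjusted threshold. At an unadjusted p under 0.05 there was 1 of 6 tubular injury genes, Krt19, at -1.10 (SE 0.45), and 1 of 8 renal cortex genes, Slc12a3, at -0.57 (SE 0.14), beside 3.92% of all genes. The drug groups did not overlap for Slc12a3, as they did not for 0.702% of all probe sets. In the mice of highest Jchain, losartan mouse 1 and aliskiren mouse 1, the mean of 6 fat genes was 4.98 and 4.82, close to the 4.90 to 5.12 of the mice with low fat genes, and Adipoq was 3.48 and 3.17. Fat genes were high in losartan mouse 3 (mean 10.34), aliskiren mouse 3 (8.01) and aliskiren mouse 2 (6.16). Jchain in these mice was 7.94, 6.94 and 6.34, where the median of the 10 mice was 7.55. The mean of 14 T and NK cell genes lay between 5.02 and 5.18 in all mice, and 10 of the 14 lay below the median. The mean of 11 macrophage genes ran from 6.17 to 9.20 with losartan and from 6.91 to 8.50 with aliskiren. It was highest in losartan mouse 3, then aliskiren mouse 1 at 8.50, and stood at 7.30 in losartan mouse 1. Its r with Jchain was 0.58 (permutation p = 0.0785, adjusted p = 0.186), and 0.691 over the 8 mice (exact permutation p = 0.0471, adjusted p = 0.141). The tubular injury mean, 6 genes, ran from 6.72 to 10.25 and had r = 0.451 (permutation p = 0.189, adjusted p = 0.252), and the T and NK cell mean had r = 0.538 (permutation p = 0.109, adjusted p = 0.186). The erythroid gene Alas2 was highest in losartan mouse 1 at 7.11 and aliskiren mouse 1 at 6.29, against 5.11 to 6.08 in the others. Of the 5 blood genes the other 4 lay below the median level and did not share this pattern. Each of the 4 was highest in a mouse other than losartan mouse 1 and aliskiren mouse 1. For 1 of them aliskiren mouse 1 came next. Among these 4, Hba-a1 had a mean of 3.63, and the other haemoglobin gene of the list, Hbb-b1, was not matched. Alas2 was thus the only erythroid gene above the median level, and the 4 low genes do not show whether blood differed between mice. The part of blood or of macrophages in the antibody values was not tested.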

How the data were processed

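Values are as the authors deposited them, on the log2 scale. The submitters' processing notes name RMA and Expression Console 1.1. Biotinylated cRNA came from 100 ng of renal cortex RNA per the labels' protocols. RMA brings the arrays to a common distribution, so a global difference in RNA amount is not visible. The table held 45101 probe sets, no missing value and array medians of 5.52 to 5.56. None of the 45 pairs of arrays was identical. The genome build behind the values is not given in the sources used here.

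After 64 control probe sets were left out, 34945 had 1 symbol in the platform annotation, 932 several and 9160 none. A gene's reference probe set is the one of highest mean. Of 112 list genes 100 were matched, and the others were not analysed here. The fit used limma 3.58.1 in R 4.3.3 with the drug as the only term, correlations used scipy 1.17.1, and the fit was tested on simulated data. The labels number the mice within a drug and name no pairing between the drugs.

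The members, lists and tests were chosen with earlier results of these data known. The rule for named genes takes all members, the 5 other immunoglobulin probe sets of highest mean, the 10 genes most like Ighm, and per list the 3 genes of largest SD and 2 of smallest p, of which the text names some. Xbp1, Bach2, Slc34a1 and Lrp2, and the genes most like Jchain, were named after their values were seen.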

Additional observations from a re-analysis of the deposited data

Results flagged for a closer look

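In 124 groups of 5 mice checked for a value far from the others, 13 were found. Chance gives about 1 in 20, but the genes were chosen by the spread of Ighm, and 6 of the 13 are Ighm probe sets, so the number is a description and no test. Aliskiren mouse 1 held 8, losartan mouse 3 held 3 and losartan mouse 2 held 2. Of the list genes only some named in the sections above were checked, so these counts depend on that choice and do not rank the mice. Among unchecked genes, losartan mouse 3 had Ucp1 at 9.31 and Cidec at 9.12, where the next mouse of its group had 3.73 and 3.72. Adgre1 was 6.74 in aliskiren mouse 1, where the next had 5.86. Probe sets of a gene are not independent of each other.

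Aliskiren mouse 1 stood above its group on 5 Ighm probe sets. These were 8.43 on 1427870_x_at, where the next mouse had 7.04, 7.46 on 1427329_a_at against 6.13, 8.36 on 1425247_a_at against 5.69, 7.50 on 1425324_x_at against 4.83 and 6.59 on 1427756_x_at against 4.59. It also stood apart for Tnfsf13b (BAFF) at 6.27 against 4.99, for the syndecan gene Sdc1 at 7.67 against 7.04, and for the mean of lymphoid chemokine and B cell survival genes at 5.00 against 4.65.

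Losartan mouse 2 stood above its group for Ighm on 1427351_s_at at 9.75 against 7.45, and for Ighg3 on 1427503_at at 7.22 against 5.80. Losartan mouse 3 stood apart for Tnfrsf13b at 5.22 against 3.97, for Adipoq at 12.96 against 3.82 and for the fat list mean at 10.34 against 4.98. Jchain, kappa and Igha had no such mouse in either group.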

How the results depend on the processing

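With limma, 0 member probe sets, 0 list genes and 0 of all probe sets passed under every alternative run, among them a level filter, 1 probe set a gene, other scalings and variance models, array weights, leaving out mice and an adjusted p under 0.1. At an unadjusted p under 0.05 there were 1935 of all probe sets. The adjusted p of the 8 differences (the 7 genes and Igha) lay between 0.822 and 1 over 162 alternatives. The count of member probe sets below the median was 16 under both alternatives. With the mouse number as a replicate block the Ighm difference was -0.20 (SE 0.44) and 0 probe sets passed. The block took the SE of Jchain from 0.79 to 0.51 and that of Igha from 0.76 to 0.38, with mouse 1 of each drug highest for both genes. Over all probe sets, deviations from the drug means of mice of the same number had r of -0.02, -0.15, 0.03, 0.25 and 0.15. For 2 of the 5 numbers the best match was the own number. These values do not settle whether the numbers stand for a pairing.

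Signs of differences near 0 turned. With array medians set equal Jchain was at 0.0011, kappa at 0.0059 and Cd22 at 0.005, and with quantile normalization Jchain was at 0.026 and Cd22 at 0.0068. With array weights Cd79b was at -0.051 and Igha at -0.29, and, with the sign kept, Jchain moved to -0.51, kappa to -0.40 and Ighm to -0.43. Without losartan mouse 3 and aliskiren mouse 1 together Cd79b was at -0.084 and Igha at -0.32. Without losartan mouse 3 and aliskiren mice 2 and 3, left out for their fat genes after the data were seen, Jchain was at 0.74 and kappa at 0.73. Other Ighm probe sets gave 0.25 (1427870_x_at), 0.52 (1425247_a_at), 0.61 (1425324_x_at), 0.20 (1452535_at), 0.35 (1427756_x_at), 0.11 (1451949_at), 0.18 (1427869_at), 0.081 (1425385_a_at) and 0.073 (1427758_x_at). Kappa had 0.14 on 1452417_x_at and Ms4a1 -0.14 on 1450912_at. With single mice left out the differences ran from -0.48 to 0.28 for Ighm, -0.57 to 0.53 for Jchain, -0.48 to 0.36 for kappa, -0.41 to 0.75 for Igha, -0.059 to 0.15 for Cd79b, -0.032 to 0.021 for Cd22, -0.17 to -0.04 for Cd79a and 0.34 to 0.62 for Ms4a1. The SD of Ighm ran from 0.49 without losartan mouse 2 to 0.89.

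Of the 6 relations of Ighm 0 passed, 1 with quantile normalization, and 0 to 2 with single mice left out. These relations already leave out losartan mouse 2 and aliskiren mouse 1, so runs without either of them repeat the main run. The run without losartan mouse 3 and aliskiren mouse 1, where 1 passed, is likewise the same as that without losartan mouse 3. Of the 12 relations of Jchain 3 passed, and 3 to 4 with single mice left out, 4 without losartan mouse 3. The cause of these changes was not tested.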
